A study of Mus musculus with 23 samples.

Results

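The enzymes of the pentose phosphate pathway were followed across RNA-seq and Ribo-seq of mouse intestinal organoids and Ribo-seq of mouse small intestine. The members were the 7 enzymes named for the pathway, 3 of the oxidative arm (*G6pdx*, *Pgls* and *Pgd*) and 4 of the non-oxidative arm (*Rpia*, *Rpe*, *Tkt* and *Taldo1*), out of 22350 protein-coding genes in the RNA-seq reference, 22230 in the organoid Ribo-seq reference and 22314 in the mouse Ribo-seq reference. They were chosen by name and not by their values, though with earlier results of these data known. All 7 were found in each reference, and all 7 passed the filter on low counts in each of the 6 comparisons.

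The study asked what the loss of mTORC1, the growth-controlling kinase complex that contains Raptor, the product of *Rptor*, does to translation in intestinal stem cells (ISCs). RNA-seq was made of WT organoids (VillinCre.ERT2.RPL22.HA, 2 lines), *Rptor* fl/fl organoids (VillinCre.ERT2.Rptor.fl/fl, 2 lines) and stem cell enriched (SCe) organoids, which had the WT genotype and were grown with 10 µM CHIR 99021 and 1.5 mM valproic acid (3 libraries). CHIR 99021 inhibits GSK3 and thereby activates Wnt signalling, and valproic acid inhibits histone deacetylases. Ribo-seq, the sequencing of mRNA fragments protected by ribosomes (footprints), was made of *Rptor* fl/fl organoids that also carried RPL22.HA and of SCe organoids, with 3 libraries each. Further Ribo-seq was made of ribosomes pulled down through the HA tag from the small intestine of adult C57BL/6 mice, 3 WT (Lgr5Cre.ERT2.RPL22.HA) and 3 *Rptor* fl/fl (Lgr5Cre.ERT2.Rptor.fl/fl.RPL22.HA). The *Villin* promoter drives Cre in the whole intestinal epithelium and the *Lgr5* promoter in stem cells. A pulldown after *Lgr5*-driven Cre can also hold ribosomes of the descendants of these cells. The paper reports HA staining in the crypt base only. All groups share a tamoxifen-inducible Cre, and the RPL22.HA allele is not in the label of the *Rptor* fl/fl organoids used for RNA-seq. *Rptor* fl/fl organoids and all mice are untreated by their labels although the study's methods describe tamoxifen. By these methods, animals with *Lgr5*-driven Cre were sampled sooner after tamoxifen than those with *Villin*-driven Cre. No WT organoids grown under standard conditions were among the Ribo-seq libraries analysed here.

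The pentose phosphate pathway branches from glycolysis at glucose 6-phosphate. Its oxidative arm is a main source of cytosolic NADPH in many cells: glucose-6-phosphate dehydrogenase (*G6pdx*) takes the committed step and makes NADPH, 6-phosphogluconolactonase (*Pgls*) opens the lactone, and 6-phosphogluconate dehydrogenase (*Pgd*) makes NADPH again and releases ribulose 5-phosphate. In the non-oxidative arm, ribose-5-phosphate isomerase (*Rpia*) makes the ribose 5-phosphate needed for nucleotides, ribulose-phosphate 3-epimerase (*Rpe*) makes xylulose 5-phosphate, and transketolase (*Tkt*) and transaldolase (*Taldo1*) pass carbon units between sugar phosphates and return them to glycolysis. mTORC1 is known to raise transcripts of this pathway through the SREBP transcription factors, and NRF2 is known to raise several of them under oxidative stress. NADPH serves lipid synthesis and the glutathione and thioredoxin systems, and dividing epithelium also draws on ribose for nucleotides.

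In GRCm38 (mm10), with GENCODE vM21 annotation, *G6pdx* (ENSMUSG00000031400.10, chrX:74409483-74429194, minus strand) overlaps *Ikbkg* on the other strand, and *Rpe* (ENSMUSG00000026005.15, chr1:66700831-66719805, plus strand) overlaps *Kansl1l* on the other strand. *Pgls* (ENSMUSG00000031807.10, chr8:71592176-71601092, plus strand) overlaps *Fam129c* and *Tkt* (ENSMUSG00000021957.7, chr14:30548359-30574720, plus strand) overlaps *Mir3076*, both on the same strand. *Pgd* (ENSMUSG00000028961.15, chr4:149149991-149166771, minus strand), *Rpia* (ENSMUSG00000053604.5, chr6:70765720-70792232, minus strand) and *Taldo1* (ENSMUSG00000025503.5, chr7:141392199-141402968, plus strand) overlap no other annotated gene. Reads were counted on whole transcripts or coding sequences, which include exons only.

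The promoters of *Taldo1*, *Pgd* and *Rpe*, which fell together with *Rpia* in *Rptor* fl/fl organoids, are shown as the 100 bases before the RefSeq transcription start, 5′ to 3′ on the strand of the gene (GRCm38.p6). RefSeq lists 2 starts for *Pgd*, of which the one nearest to the GENCODE start is used. The outermost GENCODE start lies 66 bases upstream of this one for *Pgd* and 39 bases downstream for *Taldo1*, and is the same for *Rpe*. The capitals mark the letters of a CCAAT box (CCAAT, or ATTGG on the other strand) and of a GC box (GGGCGG, or CCGCCC on the other strand).
Taldo1 (chr7:141392060-141392159, plus strand): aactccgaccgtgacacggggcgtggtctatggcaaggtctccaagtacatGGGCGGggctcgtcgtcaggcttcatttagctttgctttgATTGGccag
Pgd (chr4:149166706-149166805, minus strand): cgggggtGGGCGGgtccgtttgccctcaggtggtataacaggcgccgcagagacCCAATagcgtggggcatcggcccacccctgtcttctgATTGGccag
Rpe (chr1:66700731-66700830, plus strand): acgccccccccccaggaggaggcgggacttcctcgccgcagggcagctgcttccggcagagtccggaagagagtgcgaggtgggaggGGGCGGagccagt

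The CCAAT letters are in the *Taldo1* and *Pgd* runs and not in that of *Rpe*, and in *Taldo1* and *Pgd* the reverse copy lies at the same distance, from 9 to 5 bases before the start. The 6 letter patterns were searched on both strands over 250 bases before the RefSeq start. The outermost GENCODE start lies upstream of it by 314 bases for *G6pdx*, 772 for *Tkt*, 57 for *Rpia* and 8 for *Pgls*. For *G6pdx* and *Tkt* the bases searched are thus not those before the outermost GENCODE start. A GC box was found in 7 of the 7 members, against 32.7% of the 32851 promoters listed for the mouse, and a CCAAT box in 2 of 7, against 33.8%. The antioxidant response element core TGACNNNGC was found in *G6pdx* alone among the members, on the reverse strand from 57 to 49 bases before the start, against 10.2% of all promoters. No member held the E-box CACGTG (6.02% of all promoters), the sterol-type sequence TCACNCCAC (1.05%) or the ATF4-type sequence TGATGNAA (3.45%). These are matches of letters and not measured binding sites.

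The libraries held from 23802944 to 67598878 estimated reads in RNA-seq, from 1106178 to 8257457 in organoid Ribo-seq and from 772077 to 8238388 in mouse Ribo-seq. Levels are given as CPM, counts scaled to the size of the library. For *Rptor* mRNA, CPM were 51.5 and 47.9 in WT, 60.8, 54.0 and 53.7 in SCe and 14.8 and 15.5 in *Rptor* fl/fl organoids (log2 fold change against WT −1.71, adjusted p = 0.00520). *Rptor* footprints were 17.3, 18.7 and 16.0 CPM in organoids under the *Rptor* fl/fl label and 15.2, 41.9 and 21.0 in SCe organoids, which overlap (−0.53, adjusted p = 0.317), and 41.7, 39.7 and 44.7 in WT against 32.6, 34.4 and 36.9 in *Rptor* fl/fl mice (−0.28, adjusted p = 0.150). The footprint groups are therefore named by their labels. By RNA-seq, 7 epithelial markers summed to 7879.5 to 8248 CPM in WT, 8347 to 8463 in *Rptor* fl/fl and 4337 to 4754 in SCe organoids, and the markers of smooth muscle, immune cells and stroma (5 each) to at most 1.60, 0.602 and 6.25. The 5 stem cell markers summed to 3561 to 5127 CPM in WT, 803 to 2042 in *Rptor* fl/fl and 826 to 1606 in SCe organoids. The low sum in SCe organoids came with *Olfm4* at 135, 42.2 and 52.9 CPM, against 2864 and 4433 in WT, while the stem cell marker *Lgr5* was at 337, 222 and 219 against 215 and 197. SCe replicate 1 stood apart in both assays, and its enterocyte marker sum was the lowest of its group. Values without it are given where it decides a call. In mice, *Lgr5* held 9 to 139 footprints per library. Enterocyte markers summed to 37489 to 38210.0 CPM in WT and 42499 to 45707 in *Rptor* fl/fl, against 552 to 579 and 348 to 531 for stem cell markers. Smooth muscle markers (1220 to 1359 and 1129 to 1290) and immune markers (1187 to 1243 and 933 to 1016) also summed above the stem cell markers. Transcripts of other cells, epithelial and not, thus outnumbered those of stem cell markers in the pulldown, although the paper reports HA staining restricted to ISCs. The source of these transcripts was not tested. In the organoids and in the pulldown, fewer cells of a type and less RNA per cell cannot be told apart.

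Per kilobase of effective length, the scale on which genes can be compared, 3 members had high and 4 had low mRNA or footprint levels in each group. In WT organoid mRNA the order was *Tkt* (374 CPM per kb), *Taldo1* (360.0), *Pgd* (269), *G6pdx* (71.6), *Pgls* (63.6), *Rpia* (48.5) and *Rpe* (45.0). In *Rptor* fl/fl mRNA the level of *Tkt* was 344 while *Taldo1* (193) stood beside *Pgd* (189), and in SCe mRNA *Taldo1* (408) was above *Tkt* (268) and *Rpia* (12.6) was the lowest member. In footprints of the libraries labelled *Rptor* fl/fl, *Tkt* (784), *Taldo1* (783) and *Pgd* (762) stood close together, and in SCe footprints *Taldo1* (1102) led *Tkt* (689) and *Pgd* (453). *Taldo1* also led in mice, with 603 CPM per kb in WT and 676 in *Rptor* fl/fl, followed by *Tkt* (464 and 466) and *Pgd* (371 and 443). *Rpia* was the lowest member in both mouse groups, at 37.3 and 32.1. Neighbours in these orders were not tested against each other, and levels are comparable between groups of 1 data set but not between data sets.

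In RNA-seq, deletion of *Rptor* went with lower mRNA of 4 of the 7 members, *Taldo1*, *Pgd*, *Rpe* and *Rpia*, and 0 rose (edgeR's quasi-likelihood test, Benjamini-Hochberg adjusted over all genes, threshold 0.05). Over all 14131 genes tested, 11.0% were called lower and 11.6% higher. The median log2 fold change of the members was −0.33, against −0.0049 over all genes. In the oxidative arm, mRNA for the step that releases ribulose 5-phosphate fell: *Pgd* was 531 and 528 CPM in the WT lines and, after deletion, 386 and 357. Both *Rptor* fl/fl values lay below both WT values (log2 fold change −0.51, SE 0.0742, adjusted p = 0.0181). *G6pdx*, the committed step, was 170.5 and 166 CPM in WT and 149.8 and 117 in *Rptor* fl/fl, and its difference did not pass the test (−0.33, 95% interval −0.66 to −0.0036, adjusted p = 0.123). *Pgls* was 42.7 and 41.3 CPM against 44.3 and 47.5, the one member with a positive difference, which did not pass (0.13, 95% interval −0.05 to 0.31, adjusted p = 0.240). The 2 technical libraries of a line differed by 0.259% to 12.1% over the members, the largest being *Pgls* in the second WT line.

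The largest difference of a member between *Rptor* fl/fl and WT mRNA was in the non-oxidative arm. *Taldo1* mRNA was 358 and 369.7 CPM in WT and 194 and 195 in *Rptor* fl/fl organoids, 46.5% lower (log2 fold change −0.90, SE 0.0609, adjusted p = 0.00855). The call for *Taldo1* held under 11 of 11 alternative fits. *Rpe* was 95.4 and 96.0 CPM in WT and 73.8 and 69.0 in *Rptor* fl/fl (−0.42, SE 0.0580, adjusted p = 0.0170), and *Rpia* was 74.7 and 78.6 and 62.0 and 59.9 (−0.33, SE 0.0572, adjusted p = 0.0238). Both *Rptor* fl/fl lines lay below both WT lines for each of these genes. *Tkt*, the partner of *Taldo1*, was 831 and 821 CPM against 804 and 718, and its difference did not pass (−0.12, 95% interval −0.35 to 0.11, adjusted p = 0.379). The groups did not overlap for 7 of 7 members, but with 2 lines against 2 the same was so for 69.1% of all genes. With a single WT line on its own, whichever it was, *Pgd*, *Rpe* and *Rpia* no longer passed and 1 member was called, and *Rpia* was also lost without either *Rptor* fl/fl line (the largest adjusted p of *Rpia* over all alternatives was 0.210). In 1 fit over all RNA-seq groups, *Taldo1* and *Rpe* passed and *Pgd* and *Rpia* did not. Goblet cell markers (5 genes) summed to 1555 to 1654 CPM in WT and 2816 to 3874 in *Rptor* fl/fl organoids, and Paneth cell markers (4 genes) to 2769 to 3299 and 457 to 976, beside the stem cell sums above. Markers of fetal-like epithelium (5 genes) summed to 63.6 to 87.9 and 175 to 315. The part of these cell types in the members' differences was not tested.

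**Figure D1:**
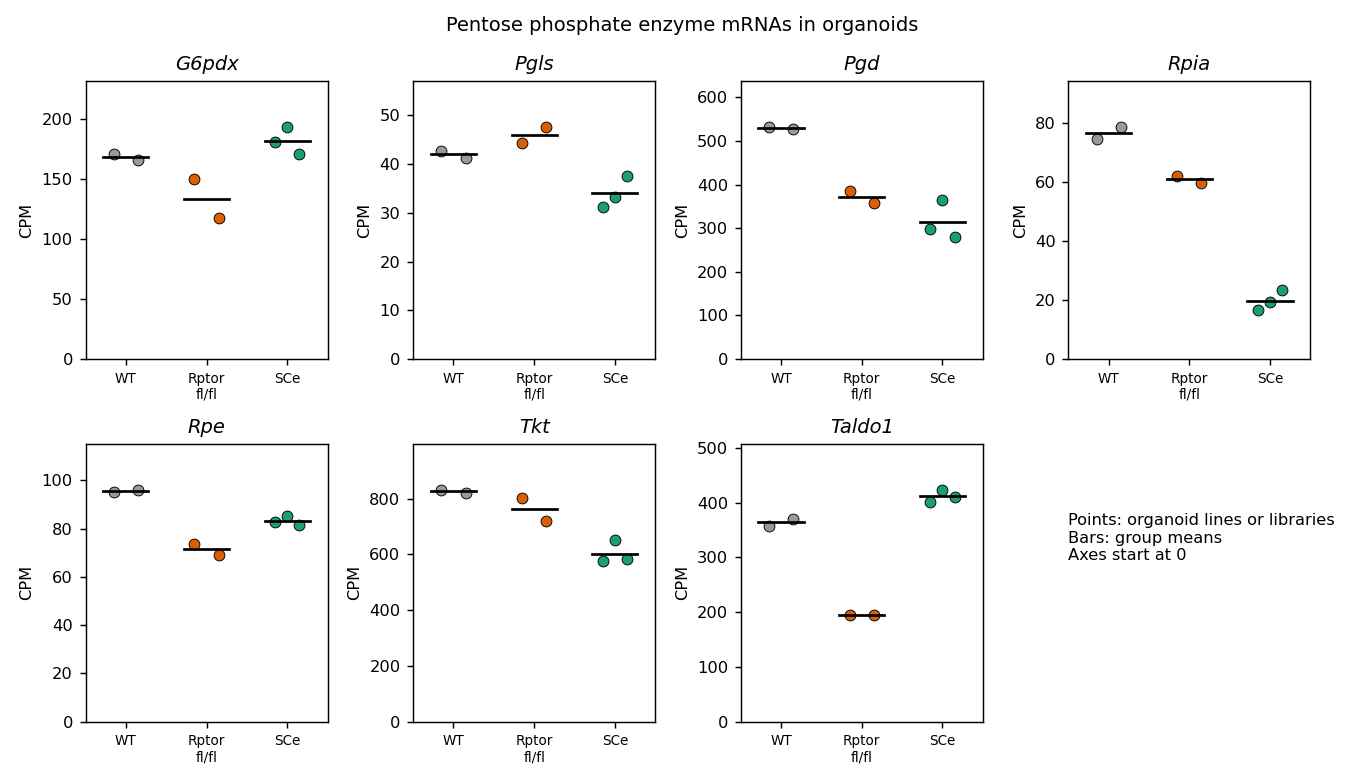
CPM of the 7 members in RNA-seq (vertical axes from 0), 1 point per organoid line (WT and *Rptor* fl/fl, 2 each) or SCe library (3), with bars at group means. *Taldo1* is lowest in *Rptor* fl/fl organoids, near 195 CPM, and *Rpia* is lowest in SCe organoids, at 16.8, 19.5 and 23.3 CPM.

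In SCe organoids 3 members, *Rpia*, *Pgd* and *Tkt*, were lower than in WT. *Rpia* mRNA was 16.8, 19.5 and 23.3 CPM in the SCe libraries against 74.7 and 78.6 in the WT lines, 26.3% of the WT level (log2 fold change −1.93, SE 0.150, adjusted p = 0.00170). This fall in the mRNA of the enzyme that makes ribose 5-phosphate was the largest difference of any member in the 6 comparisons, and it passed under 12 of 12 alternatives. *Pgd* was 298, 366 and 280.3 CPM against 531 and 528 (−0.73, SE 0.133, adjusted p = 0.0119), and *Tkt* was 575, 651 and 582 against 831 and 821 (−0.43, SE 0.0908, adjusted p = 0.0176). In all, 3 members were lower and 0 higher, where 19.9% and 22.4% of 14925 genes were called lower and higher. The other members did not pass: *G6pdx* at 181, 193 and 171 CPM (0.13, 95% interval −0.07 to 0.33, adjusted p = 0.226), *Pgls* at 31.2, 33.3 and 37.5 (−0.28, 95% interval −0.54 to −0.03, adjusted p = 0.0748), *Rpe* at 82.7, 85.5 and 81.5 (−0.18, 95% interval −0.33 to −0.03, adjusted p = 0.0592) and *Taldo1* at 401, 423 and 409.7 (0.20, 95% interval 0.02 to 0.38, adjusted p = 0.0760). *Taldo1* was thus near or above its WT level in SCe organoids. Without SCe replicate 1, *Pgls* and *Rpe* were also called lower and *Taldo1* higher, and without either WT line *Pgd* and *Tkt* were lost. *Tkt* was also lost without SCe replicate 3. This comparison shares its WT lines with the one above. Goblet markers summed to 243 to 426 CPM and enterocyte markers to 229 to 6676 in SCe organoids, against 1555 to 1654 and 6647 to 7231 in WT, and their part was not tested.

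Set directly against each other in RNA-seq, *Rptor* fl/fl and SCe organoids differed in opposite directions within the non-oxidative arm. *Rpia* was 3.07-fold higher in *Rptor* fl/fl organoids (log2 fold change 1.62, SE 0.149, adjusted p = 0.00205), and *Taldo1* was at 47.4% of its SCe level (−1.08, SE 0.0757, adjusted p = 0.00122). Each held under 12 of 12 alternatives. In the oxidative arm *Pgls* was higher (0.44, adjusted p = 0.0247) and *G6pdx* lower (−0.44, adjusted p = 0.0442), so that 2 members were higher and 2 lower, with 21.0% of 15086 genes called higher and 21.8% lower. The 2 oxidative calls were near the threshold: *G6pdx* was lost without *Rptor* fl/fl line 2 or without SCe replicate 2 or 3, and also without the filter on low counts or with effective lengths in the fit, and *Pgls* without either *Rptor* fl/fl line or SCe replicate 2. *Pgd* (0.24, 95% interval −0.10 to 0.59, adjusted p = 0.206), *Rpe* (−0.22, 95% interval −0.40 to −0.04, adjusted p = 0.0569) and *Tkt* (0.34, 95% interval 0.07 to 0.60, adjusted p = 0.0502) did not pass, although *Rpe* was called lower without SCe replicate 1 (adjusted p = 0.0298). This comparison shares its libraries with both of the preceding ones.

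**Figure D2:**
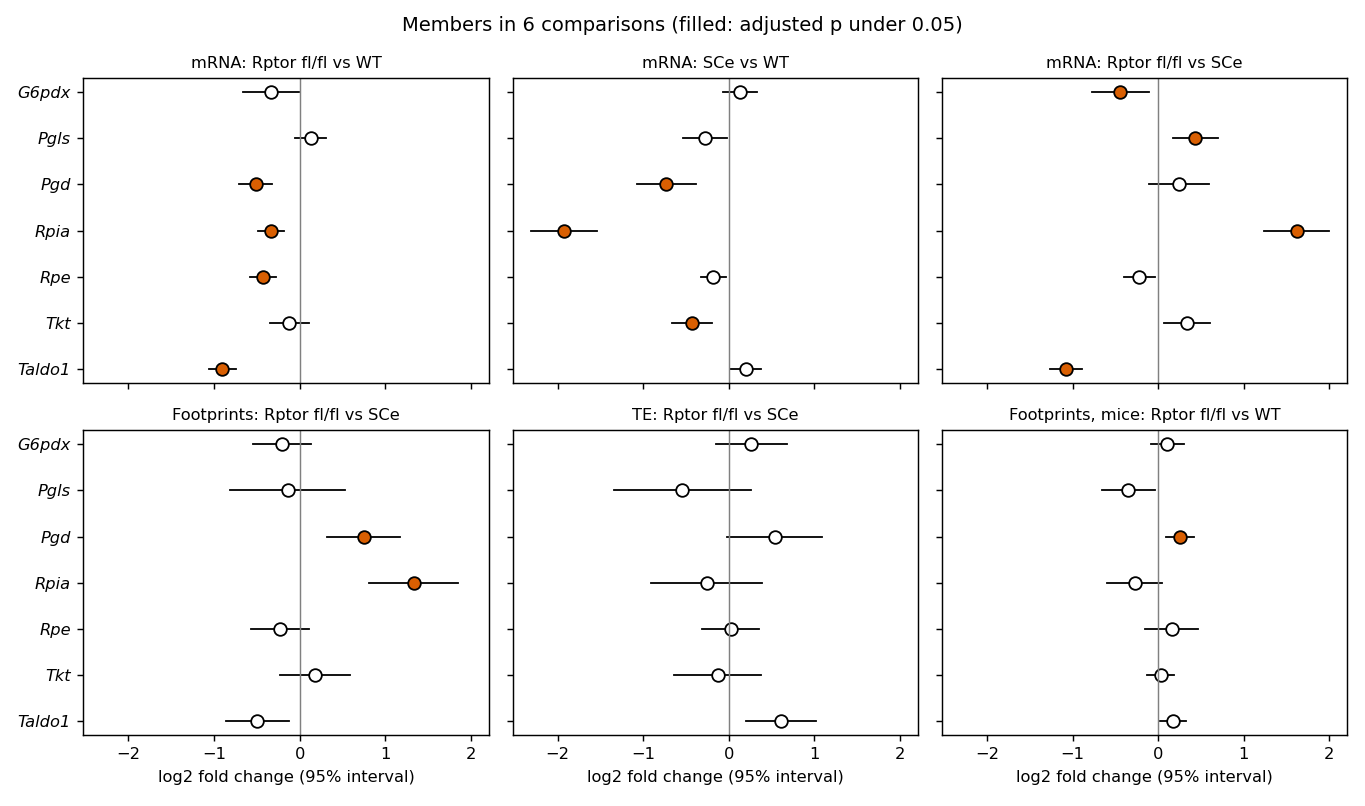
Log2 fold change of each member (horizontal axes) in the 6 comparisons, with 95% intervals from edgeR's quasi-likelihood fit. Filled points have an adjusted p under 0.05. *Rpia* and *Taldo1* lie on opposite sides of 0 in the *Rptor* fl/fl against SCe panel for mRNA, and 0 points are filled in the translation efficiency (TE) panel.

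The organoid Ribo-seq compared the same 2 labels in separate libraries, and its *Rptor* fl/fl organoids also carried RPL22.HA. Whether organoids of the same label were alike in both assays was not tested. *Rpia* footprints were 108, 89.3 and 102 CPM under the *Rptor* fl/fl label and 28.2, 52.2 and 39.8 in SCe organoids, 2.52-fold higher in the former with no overlap (log2 fold change 1.33, SE 0.228, adjusted p = 0.00596), and this held under 11 of 11 alternatives. *Pgd* footprints were 926, 966 and 964 CPM against 463, 682 and 554, 1.68-fold higher, again with no overlap (0.75, SE 0.189, adjusted p = 0.0282), but the call was lost when any 1 of the 3 with the *Rptor* fl/fl label was left out (largest adjusted p 0.123). These were the 2 members called higher, and 0 were called lower. Over 10817 genes, 6.64% were called higher and 9.84% lower. *Taldo1* footprints were 640.5, 646 and 619 CPM against 929, 959 and 793: the labelled *Rptor* fl/fl libraries were all below the SCe libraries, but the difference did not pass (−0.49, 95% interval −0.86 to −0.12, adjusted p = 0.0734), and it passed without SCe replicate 1 (adjusted p = 0.0240) or without SCe replicate 3. For *Tkt* the groups overlapped, at 1196, 1247 and 1279 CPM and 899.5, 1147 and 1232 (0.18, 95% interval −0.23 to 0.59, adjusted p = 0.526).

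*G6pdx*, *Rpe* and *Pgls* had no call in organoid footprints. *G6pdx* was 228, 224 and 220.1 CPM under the *Rptor* fl/fl label and 260.4, 270.3 and 245 in SCe organoids (−0.21, 95% interval −0.54 to 0.13, adjusted p = 0.378). *Rpe* was 63.6, 67.8 and 66.7 against 78.7, 73.6 and 79.1 (−0.23, 95% interval −0.56 to 0.11, adjusted p = 0.337). Both genes were lower in all 3 libraries labelled *Rptor* fl/fl, without passing the test. *Pgls* was 70.5, 60.7 and 56.0 against 106, 50.5 and 49.5, where SCe replicate 1 alone was above the other group and turned the sign (−0.14, 95% interval −0.81 to 0.53, adjusted p = 0.787, and 0.32 without that library). In all, 5 of 7 members had groups that did not overlap, against 39.3% of all genes. Epithelial markers summed to 15382 to 15497 CPM in the libraries labelled *Rptor* fl/fl and 7247 to 10562 in SCe organoids, and enterocyte markers to 7370.1 to 7866 and 853 to 3251. Stem cell markers summed to 4997 to 5329 and 1551 to 3049.6, with *Olfm4* at 4322 to 4675 CPM and 416 to 1160. *Lgr5* was lower under the *Rptor* fl/fl label, at 206 to 212 against 378 to 640. Of the stem cell markers 1 was called higher, *Olfm4*, and 2 lower, among them *Lgr5*. Goblet markers summed to 2843 to 4497 and 1079.6 to 1481, and Paneth markers to 4517 to 6005 and 2030 to 3180.5. Fetal-like markers summed to 124 to 136 and 163 to 479. The part of all these markers in the members' differences was not tested.

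**Figure D3:**
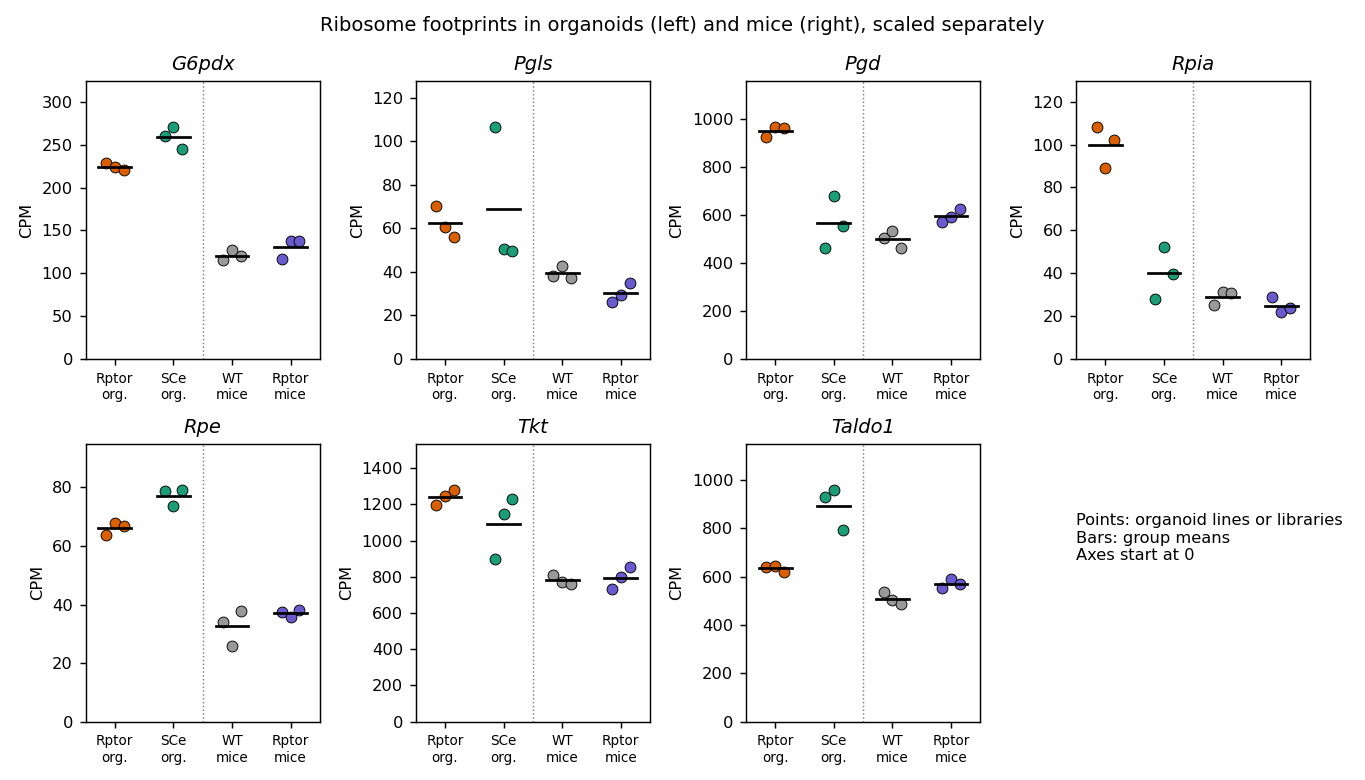
Footprint CPM of the 7 members (vertical axes from 0), 1 point per library and bars at group means, with organoids left and mice right of the dotted line. The 2 data sets were scaled separately. *Rpia* and *Pgd* of the 3 libraries labelled *Rptor* fl/fl lie above all 3 SCe libraries.

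Translation efficiency (TE), the footprint difference beyond the mRNA difference, was tested as the interaction of assay and group in 1 model over both kinds of library. The model takes organoids of the same label as the same condition in both assays, which was not tested. Between these labels, the median log2 difference of Paneth markers was −1.12 in mRNA and 0.94 in footprints. For fetal-like markers it was 1.11 in mRNA and −1.60 in footprints, where 2 of 5 were tested. The medians of epithelial, stem cell, goblet and enterocyte markers kept their sign. By edgeR's quasi-likelihood test 0 of 7 members changed in TE between *Rptor* fl/fl and SCe organoids, while 0.949% of 10745 genes were called higher and 1.91% lower. With an unadjusted p under 0.05 there was 1 member, *Taldo1*, whose log2 TE difference was 0.61 (95% interval 0.21 to 1.02, adjusted p = 0.0987). DESeq2 and limma voom each called 1 member, also *Taldo1*, and its adjusted p ranged from 3.09e-04 to 0.394 over 19 alternatives, with a call in 5. Without SCe footprint replicate 1 it was 0.0409. The *Taldo1* mRNA difference of −1.08 stood beside a footprint difference of −0.49. Its footprint level over its mRNA level, both per kb, was 2.02 on the log2 scale under the *Rptor* fl/fl label and 1.43 in SCe organoids. The 2 assays were scaled separately on different references, so such a ratio can be set against that of the other group only.

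*Pgd* had the next largest positive TE estimate (0.53, 95% interval −0.02 to 1.09, adjusted p = 0.272). Its log2 ratio of footprints to mRNA, formed in the same way, was 2.01 under the *Rptor* fl/fl label and 1.50 in SCe organoids. *Pgls* had the lowest estimate (−0.54, 95% interval −1.34 to 0.26, adjusted p = 0.443), with an interval that spans 0. For *Rpe* the estimate was close to 0 (0.02, 95% interval −0.31 to 0.35, adjusted p = 0.966). The intervals of *G6pdx* (0.26, 95% interval −0.15 to 0.67, adjusted p = 0.467), *Rpia* (−0.26, 95% interval −0.91 to 0.39, adjusted p = 0.685) and *Tkt* (−0.13, 95% interval −0.64 to 0.38, adjusted p = 0.807) also spanned 0. TE differences within those intervals were not excluded by these libraries. The median over the members was 0.02, against −0.06 over all genes.

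**Figure D4:**
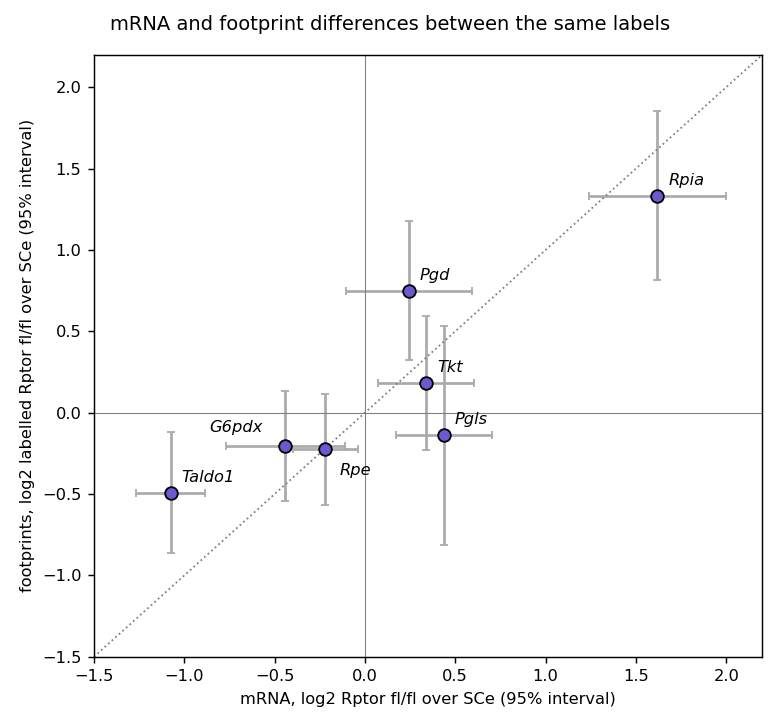
Log2 difference between organoids labelled *Rptor* fl/fl and SCe organoids in mRNA (horizontal) and in footprints (vertical) for the 7 members, with 95% intervals. The dotted line marks equal differences. *Taldo1* (−1.08 in mRNA, −0.49 in footprints) and *Pgd* (0.24 and 0.75) lie above the line.

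In mice *Pgd* was the 1 member to pass. Between the pulldowns of *Rptor* fl/fl and WT mice, 1 member was higher and 0 lower, where 7.46% of 11515 genes were called higher and 5.97% lower. *Pgd* footprints were 503, 534 and 464 CPM in WT and 571, 593 and 625 in *Rptor* fl/fl mice, 19.6% higher with no overlap (log2 fold change 0.26, SE 0.0754, adjusted p = 0.0342). The call was lost without WT replicate 1 or 3 or without *Rptor* fl/fl replicate 2 or 3, with log2 fold changes of 0.20 to 0.31 over all alternatives. *Taldo1* was 537, 503 and 489 CPM against 554, 591 and 570.2, also without overlap (0.17, 95% interval 0.02 to 0.32, adjusted p = 0.125), and passed without *Rptor* fl/fl replicate 1. *Pgls* was 37.9, 42.9 and 37.1 against 26.0, 29.2 and 35.1, with all *Rptor* fl/fl values below the WT values (−0.35, 95% interval −0.66 to −0.04, adjusted p = 0.134). The groups did not overlap for these 3 members of 7, against 31.1% of all genes.

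The remaining members overlapped between the mouse groups. *G6pdx* was 115, 127 and 119.8 CPM in WT and 117, 138 and 137 in *Rptor* fl/fl mice (0.11, 95% interval −0.09 to 0.31, adjusted p = 0.505), and *Tkt* was 808, 773 and 761 against 732, 797 and 854 (0.03, 95% interval −0.13 to 0.19, adjusted p = 0.854). *Rpia* was 25.3, 31.05 and 30.7 against 29.0, 21.9 and 23.9 (−0.28, 95% interval −0.60 to 0.05, adjusted p = 0.264), and *Rpe* was 34.1, 26.0 and 37.8 against 37.6, 35.6 and 38.1 (0.16, 95% interval −0.15 to 0.47, adjusted p = 0.542). The labels do not say whether animals were pooled. Other markers moved with the groups in mice: 4 globin genes summed to 152 to 178 CPM in WT and 813 to 986 in *Rptor* fl/fl, the 4 Paneth markers to 7171 to 7846 and 3759 to 5047, 5 goblet markers to 21438 to 21825 and 25094 to 28074 and 5 stroma markers to 869.8 to 933 and 1102 to 1307. For 7 pancreatic acinar markers the sums overlapped, at 2418 to 5636 and 4854 to 5768. Their part in the difference of *Pgd* was not tested.

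The balance between mRNA or footprint levels of partner enzymes of the non-oxidative arm was examined after the single genes were seen, and it was not tested. The level of *Tkt* per kb over that of *Taldo1* was 1.02 to 1.06 in the WT lines, 1.69 to 1.87 in the *Rptor* fl/fl lines and 0.635 to 0.691 in SCe mRNA. In footprints it was 0.964 to 1.05 in the libraries labelled *Rptor* fl/fl, 0.521 to 0.792 in SCe organoids, 0.763 to 0.776 in WT mice and 0.661 to 0.745 in *Rptor* fl/fl mice. Organoids under the *Rptor* fl/fl label were thus above SCe organoids in both assays. *Rpe* over *Rpia*, the 2 enzymes that use ribulose 5-phosphate, was 0.901 to 0.957 in WT, 0.852 to 0.873 in *Rptor* fl/fl and 2.61 to 3.73 in SCe mRNA, and 0.863 to 1.11 and 2.07 to 4.06 in the labelled *Rptor* fl/fl and SCe footprints. SCe organoids had the highest ratio among organoids in either assay, and in mice the ratio was 1.19 to 2.08 in WT and 1.85 to 2.33 in *Rptor* fl/fl. The 3 oxidative members over the 4 non-oxidative members, in CPM, were at 0.539 to 0.548 in WT, 0.5004 to 0.512 in *Rptor* fl/fl and 0.445 to 0.502 in SCe mRNA. In footprints they were at 0.600 to 0.610 under the *Rptor* fl/fl label, above the 0.396 to 0.449 of SCe organoids, and at 0.526 to 0.537 in *Rptor* fl/fl mice, overlapping the 0.467 to 0.528 of WT mice. All 7 members together held 2101 to 2104 CPM in WT, 1564 to 1714 in *Rptor* fl/fl and 1585 to 1771 in SCe mRNA.

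**Figure D5:**
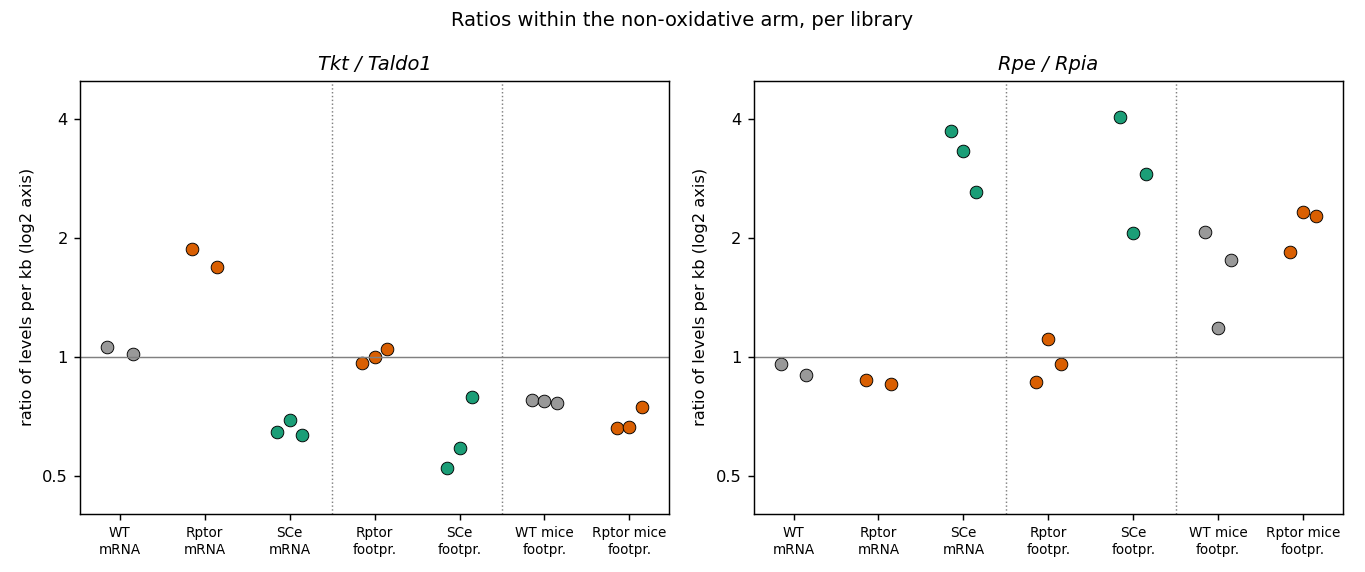
Ratio of levels per kb of *Tkt* to *Taldo1* (left) and *Rpe* to *Rpia* (right) on a log2 axis, 1 point per line or library in the 7 groups. For *Tkt* over *Taldo1*, the *Rptor* fl/fl mRNA points lie at 1.69 to 1.87, and for *Rpe* over *Rpia* all SCe points of both assays lie at 2.07 or more.

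*G6pd2*, *Tktl1* and *Tktl2*, paralogs of members, and *Prps1l1*, a paralog of the PRPP synthetases, had at most 2 counts in any line or library, *Tktl1* being at 0 in all of them. *H6pd*, which runs the first oxidative steps inside the endoplasmic reticulum, was higher in *Rptor* fl/fl organoid mRNA than in WT (0.32, adjusted p = 0.0423) and than in SCe (0.38, adjusted p = 0.0427), opposite in sign to *G6pdx* and *Pgd* in the comparison with WT, and did not pass in footprints of organoids (−0.38, adjusted p = 0.194) or mice (0.33, adjusted p = 0.138). Of 14 further genes of the pathway and its exits, 10 were tested. The counts in this and the following lists stand beside these shares of all genes called higher and lower. They were 11.6% and 11.0% in *Rptor* fl/fl against WT mRNA, and 22.4% and 19.9% in SCe against WT. In *Rptor* fl/fl against SCe they were 21.0% and 21.8% in mRNA, 6.64% and 9.84% in footprints and 0.949% and 1.91% in TE. In mice they were 7.46% and 5.97%. In *Rptor* fl/fl against WT mRNA 1 was higher and 2 lower, the deoxyribose-phosphate aldolase *Dera* (−0.52, adjusted p = 0.0111) and the phosphopentomutase *Pgm2* (−0.45, adjusted p = 0.0164). In SCe against WT 2 were higher, the PRPP synthetases *Prps1* (0.61, adjusted p = 0.00409) and *Prps2* (0.66, adjusted p = 0.00212) that use ribose 5-phosphate, and 2 lower, *Pgm2* (−1.06, adjusted p = 0.00127) and *Dera* (−0.52, adjusted p = 0.00858). *Rptor* fl/fl against SCe gave 3 higher, *Pgm2* (0.63, adjusted p = 0.00254), the sedoheptulokinase *Shpk* (0.99, adjusted p = 0.0377) and *H6pd*, and 1 lower, *Prps2* (−0.81, adjusted p = 0.00160). In organoid footprints *Pgm2* alone was called, with more footprints under the *Rptor* fl/fl label (0.92, adjusted p = 0.00554), and 0 of 10 were called in TE. In mice *Pgm2* was higher (0.52, adjusted p = 0.000231) and *Prps2* lower (−0.54, adjusted p = 0.0450). *Prps1* did not pass in *Rptor* fl/fl against WT mRNA (0.32, adjusted p = 0.0870) or in mice (−0.26, adjusted p = 0.427), nor did *Prps2* against WT mRNA (−0.18, adjusted p = 0.0646).

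Among 12 other NADPH-linked genes, 5 were lower and 0 higher in *Rptor* fl/fl against WT mRNA, led by the folate enzymes *Aldh1l1* (−1.56, adjusted p = 0.00892), *Mthfd2* (−1.14, adjusted p = 0.0158) and *Aldh1l2* (−2.24, adjusted p = 0.0185) and the cytosolic isocitrate dehydrogenase *Idh1* (−0.54, adjusted p = 0.0178). In SCe against WT 2 were higher and 2 lower: the mitochondrial isocitrate dehydrogenase *Idh2* (0.88, adjusted p = 0.00214) and the transhydrogenase *Nnt* (1.54, adjusted p = 0.00831) rose while *Idh1* (−1.07, adjusted p = 0.00557) and the NAD kinase *Nadk2* (−1.14, adjusted p = 0.00120) fell. *Nnt* is annotated under 2 gene IDs, and its first ID was counted. In *Rptor* fl/fl against SCe mRNA 2 were higher and 6 lower, among them *Idh2* (−0.96, adjusted p = 0.00153) and *Aldh1l1* (−1.45, adjusted p = 0.00211). In organoid footprints 2 of 11 tested were higher, *Nadk2* (0.90, adjusted p = 0.00831) and *Idh1* (0.69, adjusted p = 0.0262), and 2 lower, *Nnt* (−1.495, adjusted p = 0.00146) and *Idh2* (−0.69, adjusted p = 0.0256). TE was higher for 2, *Aldh1l1* (1.68, adjusted p = 0.00714) and *Mthfd2* (1.62, adjusted p = 0.0427). Like all TE calls, these take organoids of the same label as alike in both assays, which was not tested. In mice 2 of 8 were lower, *Mthfd1* (−0.40, adjusted p = 0.0104) and *Nadk2* (−0.48, adjusted p = 0.0359).

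Of 12 NRF2 target genes outside the pathway, 3 were lower and 0 higher in *Rptor* fl/fl against WT mRNA, the cystine transporter gene *Slc7a11* (−2.69, adjusted p = 0.00566), the sulfiredoxin *Srxn1* (−0.81, adjusted p = 0.00855) and the glutathione peroxidase *Gpx2* (−0.57, adjusted p = 0.0403). In SCe against WT 6 were higher and 0 lower, and in *Rptor* fl/fl against SCe 7 were lower and 0 higher, *Slc7a11* foremost (−4.01, adjusted p = 0.00179). In organoid footprints 2 were higher, *Nqo1* (2.16, adjusted p = 0.00278) and *Gsr* (0.61, adjusted p = 0.0313), and 1 lower, *Hmox1* (−1.65, adjusted p = 0.0160). TE was higher for 1, *Slc7a11* (3.89, adjusted p = 0.00780), whose mRNA difference of −4.01 stood beside no call in footprints. Whether organoids of the same label were alike in both assays was not tested here either. In mice 4 of 11 were higher and 0 lower, with *Gpx2* (0.90, adjusted p = 3.99e-05) and *Gclm* (0.52, adjusted p = 0.00119) first. Of 8 lipid synthesis genes known as SREBP1 targets, 3 were lower and 0 higher in *Rptor* fl/fl against WT mRNA, *Acss2* (−1.02, adjusted p = 0.00978), *Scd1* (−2.32, adjusted p = 0.0109) and *Elovl6* (−0.44, adjusted p = 0.0227). In SCe against WT 2 were lower, *Elovl6* (−0.90, adjusted p = 0.00238) and *Srebf1* (−0.87, adjusted p = 0.0216), and 3 were higher and 3 lower in *Rptor* fl/fl against SCe. In organoid footprints 1 was lower, *Scd1* (−0.88, adjusted p = 0.0331), and TE was higher for 1, *Acss2* (1.099, adjusted p = 0.0177). In mice 6 of 8 were higher and 0 lower, led by *Scd1* (1.45, adjusted p = 7.78e-08) and *Scd2* (1.23, adjusted p = 7.54e-06).

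Over the 19 lines and libraries of the 3 data sets, the members fell into different courses. The log2 CPM of *Pgd* correlated with that of *Rpia* (Pearson r 0.805) and *Tkt* (0.792), and *Rpia* with *Tkt* (0.808), while *G6pdx* went with *Taldo1* (0.851) and *Rpia* against *Taldo1* (−0.640). These are descriptions without a test of levels centred within each data set, over points that share libraries, assays and depth. The genes outside the pathway most like the mean of the members were *Selenbp1* (r 0.912), *Dhrs4* (0.907), *Sfn* (0.904), *Mrps28* (0.899) and *Sec16b* (0.892), out of 9809 genes. Of the members themselves *Pgd* was most like their mean (0.860) and *Taldo1* least (−0.135), each gene being part of that mean.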

How the data were processed

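Salmon 1.1.0 was run by the authors on protein-coding sequences of GENCODE vM21 (mm10), after adapter trimming of Ribo-seq reads with cutadapt 1.18 per the labels and the study's methods. The deposited estimated counts per transcript were the values used. RNA-seq was counted on whole transcripts, organoid footprints on coding sequences with separate entries for 5′ regions, which were left out, and mouse footprints on sequences that include the 5′ region. Strand use in counting was not given in the sources used here. The authors' table of TE ratios and p-values for *Rptor* fl/fl against SCe organoids was not used.

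Transcript values were added up for each gene and rounded to whole counts, and the 2 technical libraries of each WT and *Rptor* fl/fl RNA-seq line were summed, giving 19 units from 23 libraries in 7 groups. Low counts were removed with filterByExpr, libraries were scaled by TMM, and each comparison was fitted on its own groups with the quasi-likelihood test of edgeR 4.0.16 in R 4.3.3, adjusted by Benjamini-Hochberg over all genes tested at 0.05. The SE of a log2 fold change was taken as its size over the square root of the F statistic. TE was the interaction of assay and group. CPM values were TMM-scaled within each data set, and levels per kb used Salmon effective lengths. DESeq2 1.42.0 and limma 3.58.1 (voom) served as alternatives, beside other filters, scalings, a replicate block and fits without each replicate. The tests were first tried on simulated data. The paper calls the 2 RNA-seq lines of WT and of *Rptor* fl/fl organoids biological replicates. The labels do not say that organoid libraries came from separate animals. The p-values weigh group differences against the spread between these samples, which may not be the spread between animals. Depth was 23802944 to 67598878 reads in RNA-seq libraries and 772077 to 8257457 in Ribo-seq libraries. Promoters are from RefSeq (GRCm38.p6), with 7 of 7 members matched by symbol. The members, gene lists and tests were chosen with earlier results of these data known. Genes named are the members, *Rptor*, the paralogs, *H6pd*, *Prps1* and *Prps2*, up to 4 called genes per list and comparison by adjusted p, and the 5 genes most alike in pattern. *Olfm4* and *Lgr5* were named as markers after their values were seen.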

Additional observations from a re-analysis of the deposited data

Results flagged for a closer look

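For 3 members the groups overlapped neither in organoid mRNA nor in mouse footprints, and the log2 difference between *Rptor* fl/fl and WT had opposite signs. *Taldo1* was at −0.90 in organoids and 0.17 in mice, *Pgd* at −0.51 and 0.26, and *Pgls* at 0.13 and −0.35. Of these 6 values, *Taldo1* and *Pgd* in organoids and *Pgd* in mice passed the test. The signs were also opposite for *Rpe* (−0.42 and 0.16), *G6pdx* (−0.33 and 0.11) and *Tkt* (−0.12 and 0.03), but their groups overlapped in mice. *Rpe* passed the test in organoids. The difference between organoids and mice was not tested. The 2 settings also differ in assay, in the promoter of the Cre and in the cells sampled. By the paper's methods the time from tamoxifen to sampling also differed, being shorter for *Lgr5*-driven than for *Villin*-driven Cre in animals. These differences cannot be told apart.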

How the results depend on the processing

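*Taldo1* in mRNA of *Rptor* fl/fl organoids against WT and against SCe, and *Rpia* in SCe against WT and in mRNA and footprints of *Rptor* fl/fl against SCe, passed under every alternative run. Of the recomputed values of single members, 460 kept their direction and their side of the threshold, 33 gained a call, 35 lost one and 4 changed sign. Those 4 changed sign without 1 replicate, and the values without each replicate ranged from −0.348 to 0.322 for *Pgls* in organoid footprints (positive without SCe replicate 1), from −0.0305 to 0.0672 for the TE of *Rpe* (negative without *Rptor* fl/fl RNA line 2 or SCe footprint replicate 2) and from −0.0235 to 0.0922 for *Tkt* in mice (negative without *Rptor* fl/fl replicate 3). Without 1 replicate, the members called numbered 1 to 4 in *Rptor* fl/fl against WT mRNA, 1 to 6 in SCe against WT, 2 to 5 in *Rptor* fl/fl against SCe mRNA, 1 to 3 in organoid footprints, 0 to 1 in TE and 0 to 2 in mice, and a line left alone in its group was assumed to vary like the other group. With all RNA groups in 1 fit, 2 members were called in *Rptor* fl/fl against WT and 5 in SCe against WT, where DESeq2 called 6 and technical libraries kept separate gave 7. In TE, DESeq2, limma voom and separate technical libraries called 1 each, as did leaving out both SCe replicates numbered 1, which was chosen after seeing the data.

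Replicate numbers were not taken to pair the samples, since no label says that they do. The correlation of same-numbered deviations was positive in each RNA-seq comparison, each with 2 pairs only: 0.406 in *Rptor* fl/fl against WT, 0.238 and 0.216 in SCe against WT and 0.325 and 0.29 in *Rptor* fl/fl against SCe. It was −0.054 to 0.0268 in organoid footprints and −0.0159 to 0.022 in mice. With the replicate number as a block, the members called were 5 in *Rptor* fl/fl against WT mRNA, 1 in SCe against WT, 3 in *Rptor* fl/fl against SCe mRNA, 1 in organoid footprints, 0 in TE and 0 in mice. The block ended the calls of *Pgd* and *Tkt* in SCe against WT (adjusted p = 0.0533 and 0.118), of *G6pdx* in *Rptor* fl/fl against SCe mRNA (0.0994) and of *Pgd* in organoid footprints (0.0572) and in mice (0.0577), and *G6pdx* gained a call in *Rptor* fl/fl against WT (0.0371).

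Over all genes, *Rptor* fl/fl against WT gave 3195 calls, against 1536 with all RNA groups in 1 fit, 7209 with technical libraries separate and 942 to 2126 without 1 line. SCe against WT gave 6307, against 7570 with DESeq2, 7122 with all RNA groups in 1 fit, 8489 with technical libraries separate, 3146 with the block and 2030 to 9529 without 1 replicate. *Rptor* fl/fl against SCe mRNA gave 6452, against 3442 with the block and 2511 to 9101 without 1 replicate. Organoid footprints gave 1782, against 671 to 2683, and mice 1546, against 897 to 1954. TE gave 307, against 1206 with DESeq2, 1262 with technical libraries separate, 4 with the block and 26 to 2071 without 1 or 2 replicates. The cause of these shifts was not tested.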

Other observations

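The members differed in how reads were divided over their transcripts. *Pgd* and *Rpia* have 1 protein-coding transcript each in the references. In RNA-seq, *Tkt* reads were divided between its principal transcript, with 51.7% to 55.7% of the estimated reads of a line or library, and a shorter one with 42.0% to 45.9%, at much the same shares in WT, *Rptor* fl/fl and SCe organoids. In organoid footprints, the principal transcript of *Pgls* held 70.1% to 71.4% of reads in SCe libraries and 83.7% to 90.2% in libraries labelled *Rptor* fl/fl, with the rest on a shorter coding sequence. These shares are Salmon estimates on overlapping transcripts and were not tested.

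The share of a member's footprints that fell on its separate 5′ entries differed between members in organoids. *Pgls* had 2.34% to 11.0% there in libraries labelled *Rptor* fl/fl and 0% to 12.1% in SCe organoids, *G6pdx* 1.22% to 4.08% and 1.03% to 4.19%, and *Tkt* 1.32% to 1.86% and 0.671% to 3.99%. *Rpe* had 0% to 0.182% and 0.685% to 1.15%, and *Pgd* 0.126% to 0.148% and 0.125% to 1.27%. *Rpia* had 0 footprints on its entry in the 6 libraries, and the reference holds no such entry for *Taldo1*. The shares of *Pgls* and *Rpe* rest on few reads, at most 52.5 and 3 per library.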
